A study of Mus musculus with 8 samples.

Results

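The 5 genes described here, Ly6a, Ly6c1, Ly6e, Ly6h and Lynx1, are members of the Ly6/uPAR family that were picked by name from the 32285 genes of the deposited count matrices. They were picked with earlier results of these data known, so their levels and strain differences are given as descriptions, without a test of their own. Nuclei were taken from the striatum of 32 mice, 12 weeks old, of 8 inbred strains. The wild-derived ones are WSB/EiJ, PWK/PhJ and CAST/EiJ, and the others are C57BL/6, NZO/HlLtJ, A/J, 129S1/SvImJ and NOD/ShiLtJ. No mouse carried a transgene or received an agent, as far as the labels say. C57BL/6 is named as the 6J substrain in the series text and as 6NJ in the deposited nucleus table, and is written without a substrain here. Nuclear RNA and open chromatin (ATAC) were read from the same nuclei with the 10x Genomics Multiome assay in 4 batches, each a pool of nuclei from 1 mouse of every strain, so that a batch number is a replicate number and each strain has 4 mice. The deposited annotation places 55672 nuclei in 18 clusters, and a mouse's value in a cluster is the sum of its nuclei's counts there.

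Ly6/uPAR proteins share a small cysteine-rich fold of loops, and most are held on the outer cell surface by a glycosylphosphatidylinositol (GPI) lipid anchor. Ly6a, also called Sca-1, marks stem cells and endothelium and is known as the brain endothelial receptor that engineered AAV-PHP.B-type vectors use to cross the blood-brain barrier in permissive mouse strains. Ly6c1 is a surface protein of brain endothelium and some leukocytes, and Ly6e is an interferon-inducible protein known to restrict the entry of some viruses. Ly6h and Lynx1 are neuronal members that bind nicotinic acetylcholine receptors and modulate their assembly or gating.

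All 5 genes lie on chromosome 15, within 821.6 kb that hold 38 RefSeq genes, 23 of them protein-coding (GRCm38.p6, the RefSeq annotation of the build named in the submitters' processing notes). Lynx1 spans chr15:74747856-74752979, Ly6e chr15:74955025-74959904, Ly6a chr15:74994877-74998031, Ly6c1 chr15:75044018-75048920 and Ly6h chr15:75564745-75569470. Ly6a overlaps the gene model Gm28068, and the authors' counting of reads from that overlap, or from near-identical neighbours such as Ly6c2 for Ly6c1, is uncertain. The deposited index of ATAC peaks, called over all samples together, holds 61 peaks in this stretch of chromosome 15. It has 3 peaks over Lynx1, 1 each over Ly6e, Ly6a and Ly6h, and 0 over Ly6c1. The peak nearest to Ly6c1 is centred 3716 bases beyond the upstream end of its gene model. The index does not name clusters, and endothelium is 1.53% of the annotated nuclei, so a missing peak says little about chromatin there.

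The promoter is shown for Ly6c1 alone, because no promoter sequence was at hand for the other members. Ly6c1 had the widest difference between strains in endothelium of the 5 genes, and no listed peak overlapped the windows shown. The promoter set used (GRCm38.p6) has 2 starts for it on the minus strand. Both lie within the RefSeq gene model given above, so neither is its upstream end. The windows run from 250 bases before to 50 bases after each start, at chr15:75048788-75049087 and chr15:75048614-75048913. These are C57BL/6 reference sequences, and those of the other strains were not analysed here. Capitals mark AGGAAG, an ETS core with its flank.
Ly6c1 promoter at 75048788: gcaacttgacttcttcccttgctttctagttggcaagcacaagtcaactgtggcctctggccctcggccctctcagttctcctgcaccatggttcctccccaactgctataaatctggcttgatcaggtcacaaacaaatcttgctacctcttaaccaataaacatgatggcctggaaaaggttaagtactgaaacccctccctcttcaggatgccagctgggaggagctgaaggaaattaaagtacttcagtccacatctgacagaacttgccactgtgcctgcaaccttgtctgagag
Ly6c1 promoter at 75048614: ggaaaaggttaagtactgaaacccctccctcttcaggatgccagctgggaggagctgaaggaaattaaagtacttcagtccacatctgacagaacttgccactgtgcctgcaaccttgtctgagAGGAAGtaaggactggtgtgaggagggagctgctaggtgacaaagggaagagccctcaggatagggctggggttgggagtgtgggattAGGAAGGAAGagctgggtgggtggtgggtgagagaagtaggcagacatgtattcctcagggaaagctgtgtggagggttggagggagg
On both strands, AGGAAG had 3 matches in the second window, 2 of them overlapping, and 0 in the first, and 35.4% of the 32851 promoters of the same length held it. The interferon-stimulated response element and the STAT site, searched as TTCNNNGAA, had 0 matches in either window against 3.44% and 8.30% of all promoters. A match describes letters only.

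The 4 batches held 43538698 to 77698312 counts in annotated nuclei, with median counts per nucleus (unique molecular identifiers, UMIs) of 3232 to 4931, lowest in batch 3. Of 54141 distinct barcodes, 1517 occurred in 2 or more batches. Y-chromosome transcripts were present in 18 of the 32 mice, in 4 of 4 NOD/ShiLtJ mice and 2 of 4 of each other strain, whereas the series text gives an equal number of each sex in every batch. All 10 endothelial markers examined were highest in the cluster labelled endothelium, which holds 851 nuclei with a median of 3821 UMIs. That cluster also held the mural marker Rgs5 at 1854 CPM (counts scaled to a library of 1000000), against 403 CPM in the mural cluster. Each of the other mural markers examined was highest in the mural cluster. They ranged from Vtn, at 2692 CPM there against 731 CPM in endothelium, to Acta2, at 58.5 against 42.5 CPM. Batch 3 stood apart in endothelium: its summed endothelial markers were at 4533 CPM, against 9724 to 11494 CPM in the other batches, and 9 mural markers at 316 CPM against 3075 to 3799 CPM. The endothelial libraries of batch 3 of A/J, CAST/EiJ and WSB/EiJ had under 10 nuclei and were left out of the endothelial values per mouse below, which rest on 29 mice.

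Ly6a and Ly6c1 were concentrated in endothelium, Ly6e was highest there and next in macrophages, and Ly6h and Lynx1 were spread over neurons and other cells. Levels over clusters are CPM of the pooled counts, with a 95% Poisson interval that covers counting error only. Ly6a was at 727 CPM in endothelium (702 to 754) and next highest in oligodendrocytes at 15.4 CPM (13.8 to 17.2). Ly6c1 was at 2260 CPM in endothelium (2215 to 2306) and at most 20.8 CPM elsewhere, in macrophages. Over the 29 endothelial mice Ly6c1 averaged 2188 ± 1016 CPM (SD) and Ly6a 692 ± 556 CPM. An Ly6a UMI was found in 56.99% of endothelial nuclei, 34.9% after thinning to 1000 UMIs each. In Drd1+ neurons, the projection neurons with the D1 dopamine receptor, the share was 1.27% at a median of 6505 UMIs, and 0.227% after the same thinning.

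Ly6e stood at 548 CPM in endothelium (526 to 571), 154 CPM in macrophages (142 to 166) and 91.2 and 77.9 CPM in the 2 Slc17a7+ neuron clusters. It was at 7.49 to 59.2 CPM in the other 14 clusters, lowest in astrocytes and highest in the small cluster named Unknown_2. Ly6h was highest in Sst+ interneurons at 348 CPM (307 to 392), followed by Nxph1+ interneurons at 193 CPM (182 to 205) and ependyma at 189 CPM (165 to 216). The intervals of the last 2 overlap, and that of Sst+ interneurons lies above both, but they leave out the spread between mice. Only 2 mice had at least 10 Sst+ interneuron nuclei, at 291 and 824 CPM. Among mice with at least 10 nuclei, Nxph1+ interneurons ran from 101 to 364 CPM (32 mice) and ependyma from 19.9 to 403 CPM (12 mice). Ly6h was at 162 CPM in the second Drd1+ cluster, 86.6 CPM in the main Drd1+ cluster and 72.04 CPM in Drd2+ neurons. Lynx1 ran from 19.3 CPM in the cluster named Unknown and 23.3 CPM in macrophages to 70.9 CPM in Drd1+ neurons and 73.2 CPM in Nxph1+ interneurons, and the last 2 overlap. RNA free in the droplets was not measured here, so a low level in a cluster is a count and need not be expression by its cells.

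**Figure D1:**
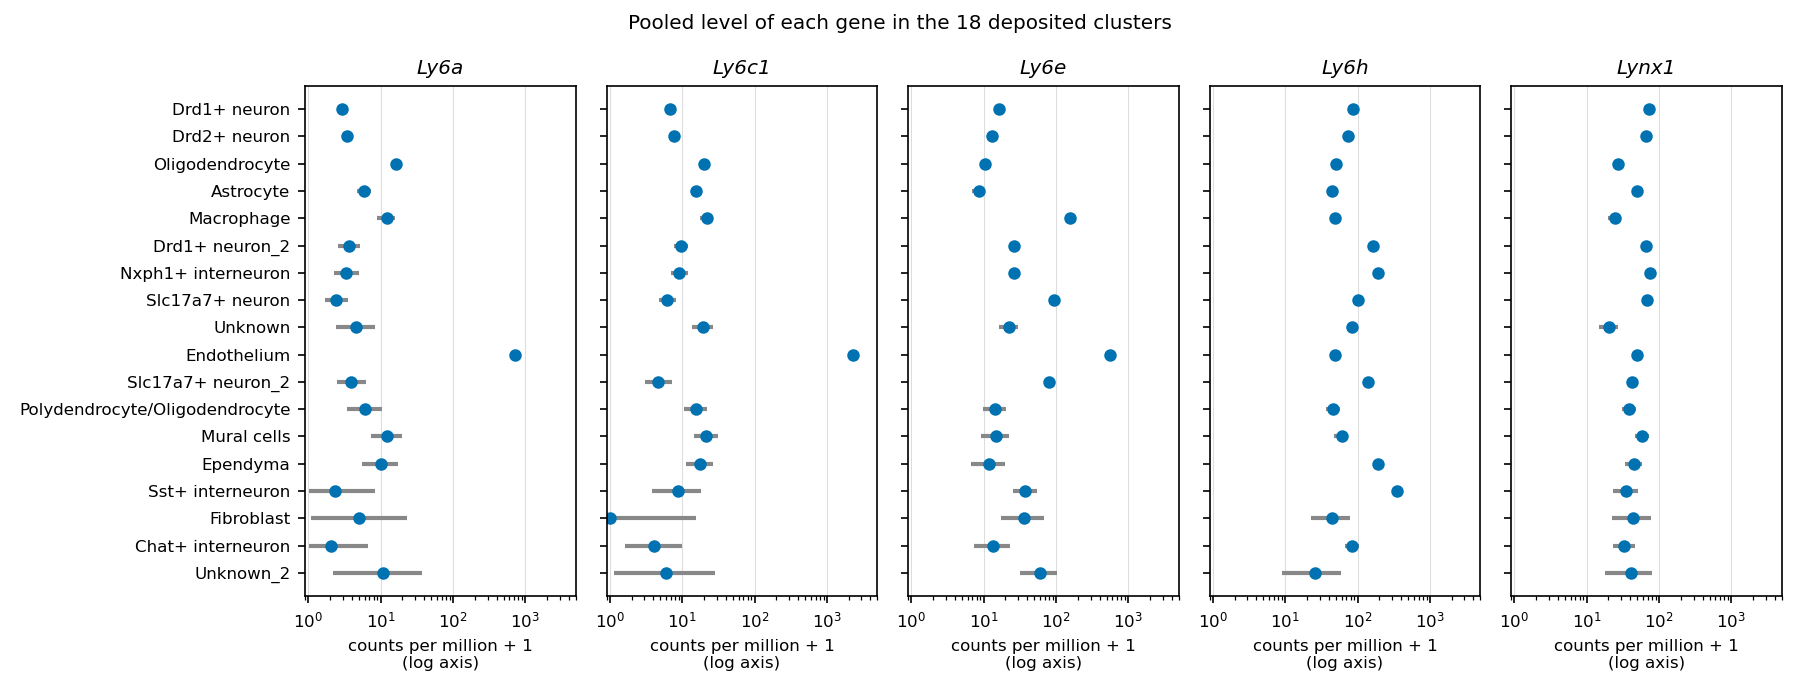
Pooled CPM plus 1 (log axis) of the 5 genes in the 18 deposited clusters, with 95% Poisson intervals as grey bars. Ly6a and Ly6c1 stand far to the right in endothelium alone (727 and 2260 CPM), Ly6e in endothelium and then macrophages (548 and 154 CPM), while Ly6h and Lynx1 lie within a narrower band.

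The genes most like each member over the 18 clusters, by Pearson correlation of log2(CPM + 1), were Nfkbia (r = 0.94), Trim16 and Cldn5 for Ly6a and Gkn3 (r = 0.95), Icam2 and Hba-a2 for Ly6c1. Those for Ly6e were Cd34 (r = 0.90), Pdgfb and Arpc3, and all 9 of these genes were highest in endothelium. For Ly6h they were Aloxe3 (r = 0.91), Rpp25 and Tmx4, each highest in Sst+ interneurons, and for Lynx1 Mrtfb (r = 0.86), Gm32250 and Gm15336. The points share clusters of very different depth, and the correlations are descriptions.

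Strain differences were fitted in 6 of the 9 clusters where every strain kept at least 3 mice, with edgeR's quasi-likelihood test of strain with batch as a block over all genes. In endothelium, where 3.23% of the 4986 genes tested were called at an adjusted p under 0.05, 3 of the 5 genes were called: Ly6a, Ly6c1 and Ly6e. In oligodendrocytes 1 of 4 tested was called (Ly6a, background 34.8%) and in macrophages 1 of 1 (Ly6e, background 24.8%). The same 3 of 4, Ly6e, Ly6h and Lynx1, were called in Drd1+ neurons (background 61.7%) and Drd2+ neurons (background 55.9%). In astrocytes 0 of 2 were called by edgeR (background 21.5%), with 0 at an unadjusted p under 0.05 and 0 by DESeq2. The genes were chosen with such results in view, so nothing is read from these counts. Values per mouse below are CPM over library totals scaled by edgeR's TMM method, in the order of batches 1 to 4.

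Endothelial Ly6a formed a high and a low group of strains. The 4 C57BL/6 mice were at 1554, 2119, 1157 and 1430.3 CPM. The 4 129S1/SvImJ mice were at 2366, 2018, 516 and 1049 CPM, and the 3 WSB/EiJ mice (batches 1, 2 and 4) at 1506, 1347 and 1202 CPM. Among these 11 mice the lowest was 129S1/SvImJ of batch 3.

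The other 5 strains were low. NOD/ShiLtJ mice were at 481, 638, 295 and 345 CPM, NZO/HlLtJ mice at 474, 606, 193 and 391 CPM and PWK/PhJ mice at 105, 527, 163 and 664 CPM. In batches 1, 2 and 4, CAST/EiJ mice were at 387, 532 and 253 CPM and A/J mice at 574, 229.8 and 286 CPM. Over all batches the groups overlap through a single mouse, 129S1/SvImJ of batch 3. Within batches 1, 2 and 4, which hold all 8 strains, the lowest of the high strains lay above the highest of the low strains: 1506 against 574 CPM, 1347 against 638 and 1049 against 664. In batch 3 only 2 high and 3 low strains had enough nuclei, and the values were 516 against 295 CPM. Without TMM scaling, the batch 3 libraries of under 10 nuclei had Ly6a at 394 CPM in WSB/EiJ (9 counts), 215 CPM in A/J and 193 CPM in CAST/EiJ, beside 407 CPM in 129S1/SvImJ and 239.6 CPM in NOD/ShiLtJ on the same scale.

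The strain means of Ly6a were 1565 ± 405 CPM in C57BL/6 (SD, n = 4), 1487 ± 854 in 129S1/SvImJ (n = 4) and 1352 ± 152 in WSB/EiJ (n = 3), whose ranges overlap. The next strain, NOD/ShiLtJ, was at 439.8 ± 154 CPM (n = 4) and its range did not overlap that of WSB/EiJ. The lowest means were 363 ± 185 CPM in A/J (n = 3) and 365 ± 273.5 CPM in PWK/PhJ (n = 4), and the 5 low strains overlap one another. Against the mean of the other 7 strains, the fitted log2 difference was 1.61 ± 0.24 (SE) in C57BL/6, 1.38 ± 0.24 in 129S1/SvImJ and 1.08 ± 0.27 in WSB/EiJ. It was -1.12 ± 0.33 in A/J, -0.99 ± 0.33 in CAST/EiJ, -0.77 ± 0.30 in PWK/PhJ, -0.65 ± 0.29 in NZO/HlLtJ and -0.53 ± 0.29 in NOD/ShiLtJ.

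The share of nuclei and the level against endothelial markers showed the same grouping. Both are taken from the same Ly6a counts, so they are other views of it and not independent support. An Ly6a UMI was found in 75.7% of 129S1/SvImJ, 67.3% of C57BL/6 and 71.1% of WSB/EiJ endothelial nuclei, and in 42.1% to 54.4% in the other strains. Thinned to 1000 UMIs per nucleus, which leaves out 5 to 14 nuclei per strain, the shares were 58.3%, 52.5% and 45.9% against 20.8% to 27.0%. The summed endothelial markers were at 9605 CPM in 129S1/SvImJ, 11964 in C57BL/6 and 9989 in WSB/EiJ against 8513 to 11355 CPM in the 5 low strains. Their part in the Ly6a difference was not tested. Per 1000 counts of the 10 endothelial markers, Ly6a had 136 ± 36.7 counts in 129S1/SvImJ, 131 ± 38.5 in C57BL/6 and 124 ± 24.2 in WSB/EiJ. It had 27.7 ± 8.40 in CAST/EiJ to 43.2 ± 29.1 in PWK/PhJ among the others. The 9 mural markers moved partly with Ly6a in this cluster: they summed to 4374 CPM in C57BL/6, 3751 in WSB/EiJ and 3347 in 129S1/SvImJ, against 3516 in NOD/ShiLtJ and 2199 to 3091 CPM in the other low strains, and their part in the result was not tested.

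**Figure D2:**
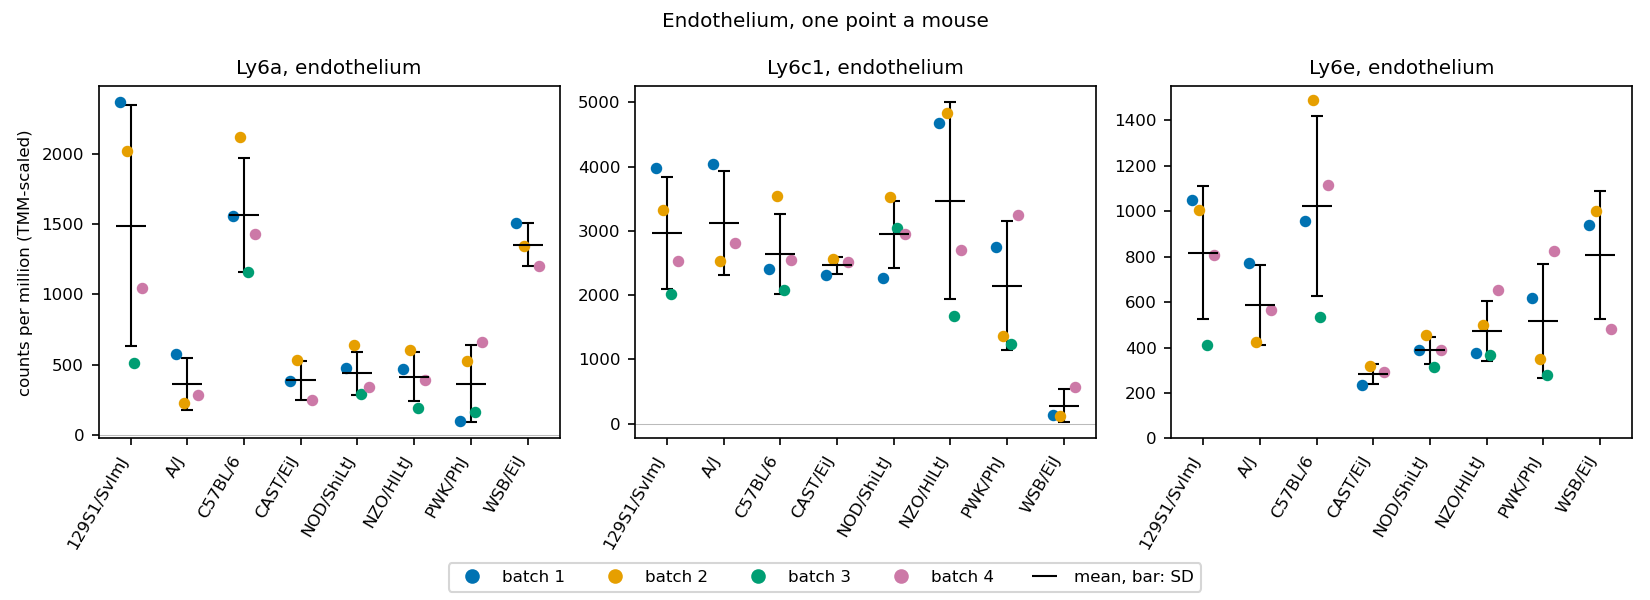
TMM-scaled CPM of Ly6a, Ly6c1 and Ly6e in endothelium, 1 point a mouse coloured by batch, with the strain mean and SD in black. Ly6a is high in 129S1/SvImJ, C57BL/6 and WSB/EiJ (means 1352 to 1565 CPM), Ly6c1 is low in the 3 WSB/EiJ mice shown (mean 273 CPM), and Ly6e is highest in C57BL/6 (1024 CPM) and lowest in CAST/EiJ (283 CPM).

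Ly6c1 was low in the 3 WSB/EiJ mice with at least 10 endothelial nuclei, a strain with high Ly6a. They were at 138, 112 and 570.2 CPM, from 20, 17 and 46 counts, a mean of 273 ± 257 CPM (SD, n = 3). The 26 mice of the other 7 strains lay between 1234 and 4826 CPM, so the mice with at least 10 nuclei did not overlap. The fourth WSB/EiJ mouse, of batch 3, was not low, but its value rests on few nuclei. Without TMM scaling its 6 nuclei had Ly6c1 at 1399 CPM (32 counts), within the 414 to 2476 CPM of the other strains of that batch. These counts lay in 4 nuclei, with 15 in a single nucleus that held 8 endothelial marker counts. The other strain means ran from 2148 ± 1003 CPM in PWK/PhJ (n = 4) to 3468 ± 1536 CPM in NZO/HlLtJ (n = 4), and these 7 strains overlap one another. The fitted log2 difference of WSB/EiJ from the mean of the others was -3.56 ± 0.41 (SE). An Ly6c1 UMI was found in 23.3% of 90 WSB/EiJ endothelial nuclei and in 75.3% to 91.2% in the other strains.

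The Ly6c1 counts of WSB/EiJ lay mostly in nuclei that the ATAC index does not list. In the 50 listed WSB/EiJ nuclei Ly6c1 was at 42.3 CPM (95% Poisson interval 21.1 to 75.7; 11 counts in 3 nuclei), against 2548 to 4367 CPM in listed nuclei of the other strains. In the 40 nuclei not listed it was at 518 CPM (423 to 628; 104 counts in 18 nuclei), against 743 to 1715 CPM in the other strains. Listed nuclei of WSB/EiJ carried endothelial markers at 13894 CPM and Ly6a at 1804 CPM, and those not listed 4932 and 299 CPM. Per 1000 endothelial marker counts, Ly6c1 had 3.05 counts in listed and 105 in unlisted WSB/EiJ nuclei, while the other strains had 172 to 353 in listed and 132 to 258 in unlisted nuclei. All 90 WSB/EiJ endothelial nuclei carry the same strain call from RNA and from ATAC reads, made by the authors with Demuxlet, and are singlets in both. RNA of other strains within a droplet was not measured, so how much of the WSB/EiJ level it could be was not tested. With the 3 batch 3 libraries of under 10 nuclei added, of A/J, CAST/EiJ and WSB/EiJ, edgeR tested 4212 genes and did not call Ly6c1 in endothelium, and the log2 ratio of NZO/HlLtJ to WSB/EiJ was 2.496 in place of 3.66.

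The 3 strains with the highest endothelial Ly6a also had the 3 highest means of Ly6e, with smaller gaps. C57BL/6 mice were at 957, 1489, 534 and 1117 CPM, and 129S1/SvImJ mice at 1047, 1006, 409.8 and 808 CPM. CAST/EiJ mice of batches 1, 2 and 4 were at 236, 321 and 294 CPM, the lowest strain. Strain means were 1024 ± 395 CPM in C57BL/6 (SD, n = 4), 818 ± 291 in 129S1/SvImJ (n = 4), 807 ± 282 in WSB/EiJ (n = 3) and 587 ± 176 in A/J (n = 3). They were 517 ± 251 in PWK/PhJ, 474 ± 133 in NZO/HlLtJ and 388 ± 58.0 in NOD/ShiLtJ (n = 4 each), and 283 ± 43.4 CPM in CAST/EiJ (n = 3). Each strain overlapped its neighbours in this order. The fitted log2 difference from the other strains was 1.03 ± 0.20 (SE) in C57BL/6 and -1.26 ± 0.28 in CAST/EiJ. These were also the strains with the highest and lowest mural marker sums in this cluster, 4374 and 2199 CPM, whose part in the Ly6e difference was not tested. Without batch 2, edgeR did not call Ly6e in endothelium. Ly6h and Lynx1 were at 40.0 to 79.9 and 39.3 to 95.1 CPM as endothelial strain means, from 14 to 36 counts a strain, and edgeR did not call them there.

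Ly6a was also counted in A/J oligodendrocytes, the myelin-forming cells. The 4 A/J mice were at 56.0, 40.6, 61.1 and 52.85 CPM, from 31, 74, 28 and 42 counts. All 28 other mice lay between 0 and 31.7 CPM, so A/J did not overlap any other strain, although A/J was among the 5 strains with low Ly6a in endothelium. The next strain was NOD/ShiLtJ, at 7.32, 5.51, 31.7 and 16.5 CPM, and the other 6 strain means were 4.54 to 11.7 CPM. The A/J mean was 52.6 ± 8.73 CPM (SD, n = 4) and its fitted log2 difference from the other strains 2.61 ± 0.22 (SE). An Ly6a UMI was found in 6.95% of 2102 A/J oligodendrocytes and in 0.922% to 2.12% in the other strains.

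The A/J counts were spread over many nuclei: 122 oligodendrocytes had 1 UMI, 20 had 2 and 4 had 3 or more. Ly6c1 was in the same oligodendrocytes at 21.6 ± 7.81 CPM in A/J and at 15.9 to 24.3 CPM as a mean in the other strains, and edgeR did not call it. The summed endothelial markers in oligodendrocytes were at 40.3 CPM in A/J and at 30.4 to 43.5 CPM in the other strains. The 9 mural markers were at 58.4 CPM in A/J, 58.9 in NOD/ShiLtJ and 57.8 in CAST/EiJ, against 40.8 to 47.8 CPM in the other strains, and their part in the Ly6a level was not tested. In other A/J clusters pooled Ly6a was low: 1.80 CPM in Drd1+ neurons, 5.71 CPM in astrocytes and 13.9 CPM in macrophages. As a mean over mice, A/J macrophages were at 19.0 ± 9.54 CPM (11 counts), the highest strain, with C57BL/6 at 18.9 ± 15.2 CPM. A/J Nxph1+ interneurons also had the highest mean, 8.08 ± 13.4 CPM without TMM scaling (5 counts). In the joint polydendrocyte and oligodendrocyte cluster, 76 A/J nuclei held 1 Ly6a count.

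**Figure D3:**
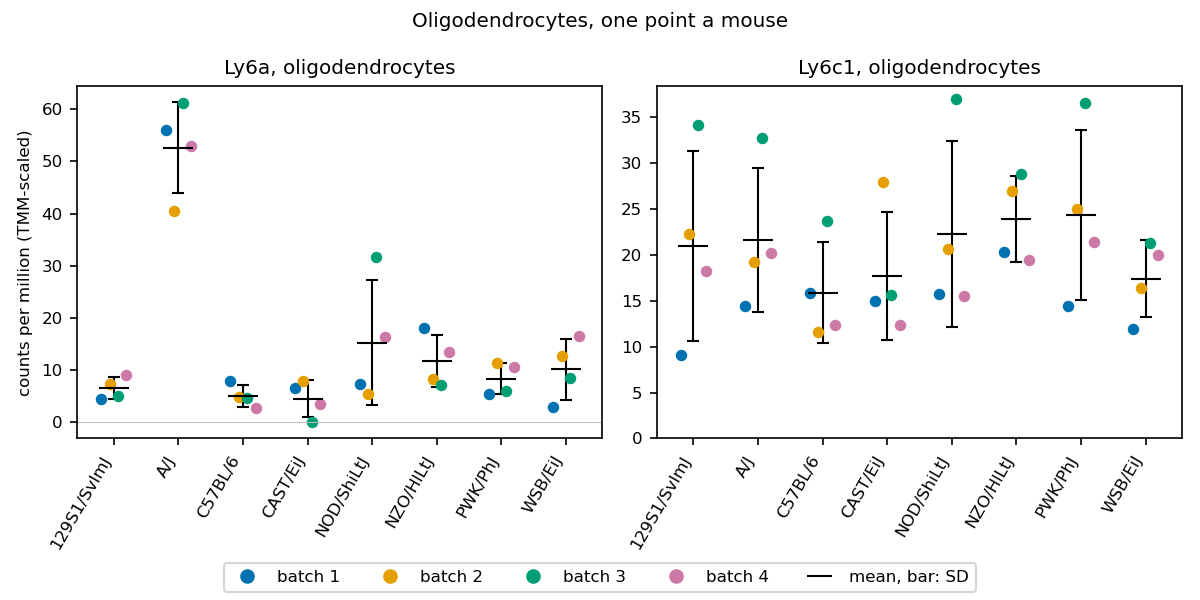
TMM-scaled CPM of Ly6a (left) and Ly6c1 (right) in oligodendrocytes, 1 point a mouse coloured by batch, with the strain mean and SD in black. The 4 A/J mice lie above all others for Ly6a (40.6 to 61.1 CPM) and among the others for Ly6c1.

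Ly6e in macrophages and in neurons put the strains in different orders. In macrophages, the resident immune cells of the brain, WSB/EiJ mice were at 277, 324, 746 and 358 CPM and PWK/PhJ mice at 121, 344, 389.9 and 361 CPM. The 4 129S1/SvImJ mice were at 151, 197, 352 and 291 CPM. NOD/ShiLtJ mice were at 10.7, 52.1, 152 and 73.9 CPM, from 1 to 15 counts a mouse. CAST/EiJ mice were at 59.3, 77.9, 82.5 and 104 CPM, from 2 to 8 counts a mouse. NOD/ShiLtJ and CAST/EiJ had the lowest means, 72.1 ± 59.2 and 80.9 ± 18.3 CPM (SD, n = 4 each), and WSB/EiJ the highest, 426 ± 216 CPM. The fitted log2 difference from the other strains was 1.47 ± 0.25 (SE) in WSB/EiJ and -1.46 ± 0.35 in NOD/ShiLtJ.

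NZO/HlLtJ macrophages differed widely between mice. They were at 26.3, 0, 235 and 415 CPM, from 2, 0, 26 and 30 counts. Y transcripts were absent in the first 2 of these mice and present in the others. Without TMM scaling, the 34 measured interferon-responsive genes summed to 874, 756, 1507 and 2725 CPM in the same order. In the mice of the other strains they summed to 605 to 1445 CPM. The part of either in the Ly6e level was not tested. Summed endothelial markers in macrophages were at 345 CPM in CAST/EiJ, 209.9 CPM in NZO/HlLtJ, 172 CPM in PWK/PhJ and 44.0 to 77.2 CPM in the other strains. Their part in the Ly6e level was not tested.

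In Drd1+ neurons the levels of Ly6e were low and ranked otherwise. NOD/ShiLtJ mice were at 18.7, 13.8, 43.2 and 30.5 CPM, A/J mice at 20.1, 18.8, 41.6 and 22.8 CPM, and NZO/HlLtJ mice at 12.1, 16.0, 35.4 and 28.1 CPM. PWK/PhJ mice were at 7.83, 6.58, 12.6 and 6.15 CPM and 129S1/SvImJ mice at 6.27, 8.42, 11.5 and 7.73 CPM. The first 3 strains had means of 22.9 to 26.6 CPM, CAST/EiJ 15.4 CPM, WSB/EiJ 12.3 CPM, and C57BL/6, 129S1/SvImJ and PWK/PhJ 8.30 to 9.13 CPM, and neighbours in this order overlap. In Drd2+ neurons, the projection neurons with the D2 dopamine receptor, the means were 14.8 to 19.3 CPM in NOD/ShiLtJ, NZO/HlLtJ, CAST/EiJ and A/J and 5.64 to 9.17 CPM in the others. Within its batch, NOD/ShiLtJ lay above the mean of the other strains in 4 of 4 batches in both neuron clusters and below it in 4 of 4 batches in macrophages and in endothelium. PWK/PhJ and 129S1/SvImJ lay below in both neuron clusters and above in macrophages, in 4 of 4 batches each.

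**Figure D4:**
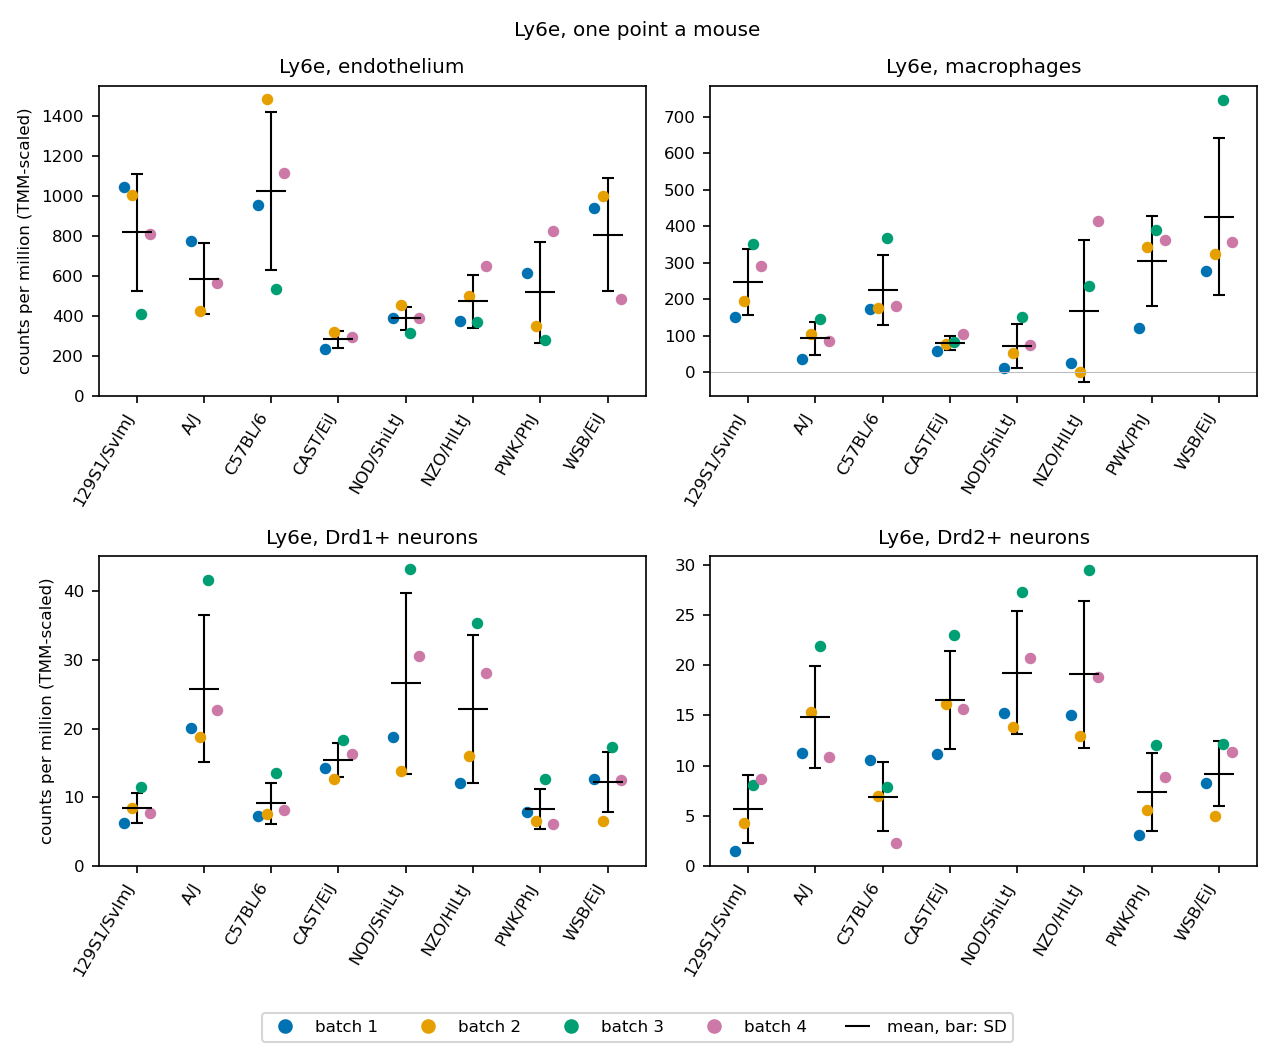
TMM-scaled CPM of Ly6e in endothelium, macrophages, Drd1+ and Drd2+ neurons, 1 point a mouse coloured by batch, with the strain mean and SD in black (each panel has its own scale). NOD/ShiLtJ is the lowest strain in macrophages (72.1 CPM) and the highest in Drd1+ neurons (26.6 CPM).

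Lynx1 was highest in 129S1/SvImJ in both kinds of projection neuron. In Drd1+ neurons its 4 mice were at 86.1, 81.5, 175 and 143 CPM, each the highest of its batch, where the next mouse stood at 66.8, 58.5, 96.8 and 83.7 CPM. The mean was 122 ± 45.5 CPM (SD, n = 4), against 62.1 to 74.6 CPM in the other strains, which overlap one another. Over all batches the 129S1/SvImJ range also overlaps that of the next strain, PWK/PhJ. In Drd2+ neurons the 129S1/SvImJ mice were at 74.7, 75.6, 146 and 126 CPM, again the highest of each batch. The fitted log2 differences were 0.80 ± 0.06 (SE) in Drd1+ and 0.70 ± 0.08 in Drd2+ neurons. Over strains, batches 3 and 4 were higher than batches 1 and 2, at 94.9 and 84.2 CPM on average in Drd1+ neurons against 63.1 and 56.2 CPM. In astrocytes Lynx1 was at 42.0 ± 9.78 CPM in 129S1/SvImJ, next to the lowest mean, 41.3 ± 7.28 CPM in WSB/EiJ. The difference between clusters was not tested.

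Ly6h varied less. In Drd1+ neurons NZO/HlLtJ mice were highest on average, at 98.0, 91.1, 155 and 102 CPM (mean 112 ± 29.6 CPM), and CAST/EiJ mice lowest, at 57.3, 78.3, 71.9 and 75.2 CPM (mean 70.7 ± 9.30 CPM). In Drd2+ neurons PWK/PhJ had the highest mean, 103 ± 27.4 CPM, from 68.6, 93.8, 119.5 and 129.8 CPM, and 129S1/SvImJ the lowest, 57.7 ± 5.79 CPM. Every strain overlapped its neighbours in both orders. PWK/PhJ also had the highest Ly6h mean in the second Drd1+ cluster, 220.4 ± 54.2 CPM, and in Nxph1+ interneurons, 251 ± 104 CPM, here without TMM scaling. The lowest there were 131 ± 41.4 CPM in C57BL/6 and 135 ± 17.1 CPM in WSB/EiJ, respectively, with overlapping ranges and no test. In Drd1+ neurons batch 3 averaged 118 CPM over strains, against 74.1 to 89.7 CPM in the other batches, and edgeR did not call Ly6h there without batch 3 or without the batch block. Within mice and without TMM scaling, Ly6h was lower in Drd2+ than in Drd1+ neurons in 27 of 32, by a log2 ratio of -0.27 ± 0.23 (SD). So were Ly6e in 26 of 32 (-0.37 ± 0.51) and Lynx1 in 22 of 32 (-0.11 ± 0.15). Ly6c1 and Ly6a, both at a few CPM there, were higher in Drd2+ neurons in 25 and 22 of 32 mice (0.18 ± 0.41 and 0.23 ± 0.64).

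**Figure D5:**
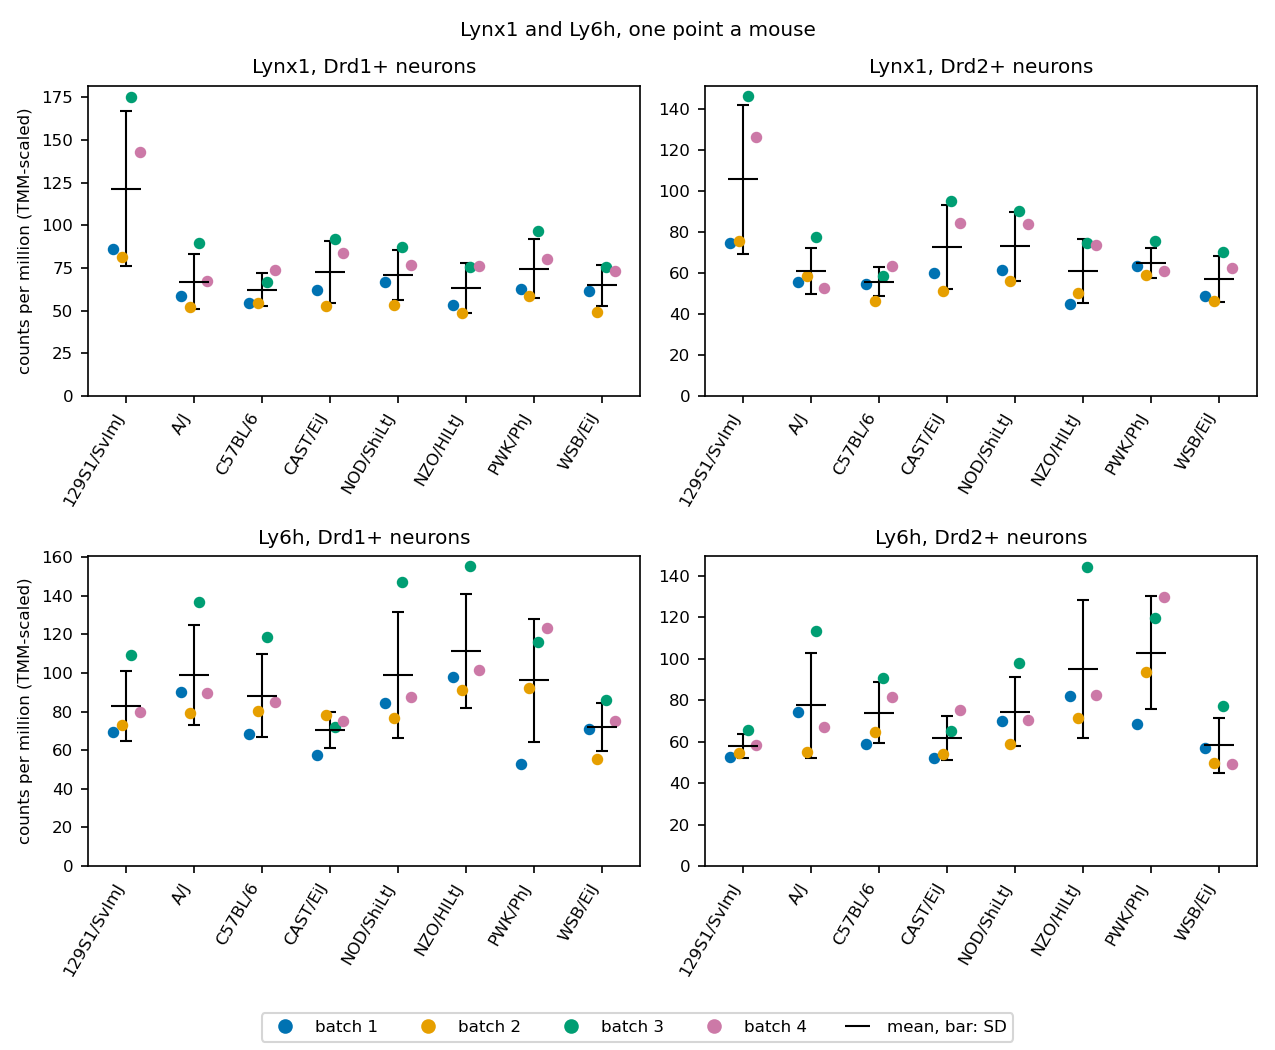
TMM-scaled CPM of Lynx1 (top) and Ly6h (bottom) in Drd1+ and Drd2+ neurons, 1 point a mouse coloured by batch, with the strain mean and SD in black. The 129S1/SvImJ mice are the highest of each batch for Lynx1 (81.5 to 175 CPM in Drd1+ neurons), and batch 3 is high for Ly6h in most strains.

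Of 45 other Ly6/uPAR family genes, 44 are in the matrices and few were counted often. Cd59a, the GPI-anchored inhibitor of complement, and the receptor-binding Lypd1 and Lypd6 had the most counts, and Ly6g and Gpihbp1 had 0 counts. The family genes called were 4 of 5 tested in Drd1+ neurons, 3 of 4 in Drd2+ neurons, 3 of 4 in oligodendrocytes, 2 of 2 in astrocytes and 2 of 2 in endothelium, where 61.7%, 55.9%, 34.8%, 21.5% and 3.23% of all genes tested were called. The median span between the highest and lowest strain was 2.17 on the log2 scale in Drd1+ neurons and 2.69 in endothelium, against 0.63 and 0.90 over all genes tested. The 2 endothelial genes were Cd59a and Ly6c2, and Ly6c2 passed the filter on low counts only through CAST/EiJ, where it was high. Nothing is read from the endothelial count and span. Cd59a was at 52.8 ± 13.4 CPM in WSB/EiJ and 3.74 ± 0.96 CPM in PWK/PhJ Drd1+ neurons (edgeR adjusted p = 2.67e-23). In endothelium Cd59a was at 248 ± 102 CPM in NOD/ShiLtJ and 49.2 ± 21.7 CPM in PWK/PhJ (edgeR adjusted p = 7.26e-05). Lypd6 in oligodendrocytes was at 57.3 ± 5.21 CPM in NOD/ShiLtJ and 2.77 ± 2.53 CPM in CAST/EiJ (edgeR adjusted p = 1.13e-08).

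Ly6c2, the close neighbour of Ly6c1, was counted in CAST/EiJ endothelium. It was at 155 ± 25.4 CPM (SD, n = 3) there, from 132 to 182 CPM. Every mouse of the other strains was at 0 to 53.4 CPM, with 0 counts in 129S1/SvImJ. The filter on low counts was grouped by strain, and Ly6c2 passed it only through CAST/EiJ. Its call by edgeR is therefore no support for this difference. CAST/EiJ had Ly6c1 at 2462 ± 135 CPM, within the range of the other strains, and reads shared between the 2 genes cannot be told apart here.

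Of 16 nicotinic acetylcholine receptor subunits, the receptors that Ly6h and Lynx1 act on, Chrna7 had the most counts, 18916 in all nuclei. In Drd1+ neurons 2 subunits passed the filter on low counts and 1 was called (61.7% of all genes), and in Drd2+ neurons 3 passed and 2 were called (55.9%). Chrna7, the subunit of the homomeric receptor, was at 123 CPM in CAST/EiJ and 63.6 CPM in NZO/HlLtJ Drd1+ neurons (edgeR adjusted p = 2.94e-07).

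Interferon-responsive genes, to which Ly6e belongs by its known induction, were called in endothelium for 3 of 15 tested, in macrophages for 2 of 6 and in Drd1+ neurons for 5 of 9. Over all genes tested the shares called there were 3.23%, 24.8% and 61.7%. The counts were 1 of 8 for Drd2+ neurons, 1 of 5 for oligodendrocytes and 3 of 5 for astrocytes, beside 55.9%, 34.8% and 21.5% of all genes. In endothelium the antigen presentation subunit B2m was at 1168 ± 506 CPM in C57BL/6 and 499.9 ± 130.3 CPM in CAST/EiJ (edgeR adjusted p = 0.0119). These 2 strains were also the highest and the lowest for endothelial Ly6e, but between them the orders differed: B2m was at 519 CPM in 129S1/SvImJ, next to lowest, and at 897 CPM in NOD/ShiLtJ, next to highest. The guanylate-binding protein Gbp3 had 206 ± 173 CPM in PWK/PhJ and 38.8 ± 26.3 CPM in NOD/ShiLtJ (edgeR adjusted p = 0.00428).

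Of 20 brain endothelial surface proteins known as entry or transport routes, 18 were tested in endothelium and 3 called, Lrp8, Alpl and Tfrc, beside 3.23% of all genes. Lrp8, a lipoprotein receptor, was at 327 ± 72.2 CPM in CAST/EiJ and 77.2 ± 30.1 CPM in NOD/ShiLtJ (edgeR adjusted p = 0.00248). Alpl, a GPI-anchored phosphatase, was at 86.1 ± 53.7 CPM in NZO/HlLtJ and 11.4 ± 9.85 CPM in PWK/PhJ (edgeR adjusted p = 0.0375). Neither had the high means of Ly6a in 129S1/SvImJ, C57BL/6 and WSB/EiJ together.

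The genes that make, trim or release GPI anchors were called in 16 of 30 tested in Drd1+ neurons, 15 of 30 in Drd2+ neurons and 9 of 27 in oligodendrocytes. Over all genes these shares were 61.7%, 55.9% and 34.8%. Macrophages had 1 of 5 called (24.8% of all genes) and astrocytes 5 of 22 (21.5%). In endothelium edgeR called 0 of 6, with 0 at an unadjusted p under 0.05 and 0 by DESeq2. As 3.23% of all genes were called there, 0 of 6 says little. Pgap2, which remodels the anchor's lipid, was at 36.2 ± 5.98 CPM in C57BL/6 and 7.32 ± 1.91 CPM in NOD/ShiLtJ Drd1+ neurons (edgeR adjusted p = 2.22e-12).

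The 3 genes whose 8 endothelial strain means were most like those of Ly6a, among 4985 genes, were Brk1 (r = 0.89), Rab22a (r = 0.89) and Gsta4 (r = 0.88). Gsta4, a glutathione transferase, had means of 185 CPM (C57BL/6) and 171 CPM (129S1/SvImJ) but 41.8 CPM in WSB/EiJ, against 12.3 to 32.3 CPM in the 5 strains with low Ly6a. Brk1 was at 171 to 183 CPM in the 3 strains with high Ly6a and 102 to 137 CPM in the others. Correlations over 8 strain means chosen as the highest among so many genes are descriptions only.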

How the data were processed

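The deposited matrices hold raw UMI counts per gene and nucleus, not normalized by the authors. Cell Ranger ARC 2.0.0 and bcl2fastq 2.20.0.422, and the builds mm10 and GRCm38, are named in the submitters' processing notes. Other alignment and counting settings are not given in the sources used here. Per the description deposited with the nucleus table, the authors called strains and doublets with Demuxlet on RNA and on ATAC reads, called doublets also with DoubletFinder and named the clusters. All 55672 annotated nuclei are singlets in each call, and their RNA and ATAC strain calls are identical. Strains and clusters were taken as they are. A mouse was its batch and strain. Counts were summed per mouse and cluster, libraries under 10 nuclei were left out, and sums were tested with edgeR 4.0.16 (R 4.3.3; filterByExpr by strain, TMM, robust quasi-likelihood F-test of strain with batch as a block, Benjamini-Hochberg over all genes tested). DESeq2 1.42.0 was an alternative. The block was used because the labels say that a batch is a shared pool. Other steps used Python 3.11.15, numpy 2.4.6, scipy 1.17.1, pandas 2.3.3 and matplotlib 3.10.9. The fit was also run on simulated counts as a check of the code, and its outcome is not given here. Members and gene lists were chosen with earlier results of these data known. From each list, up to 2 called genes per cluster with the largest F and at least 10 CPM in the top strain could be named, of which a selection is given. Endothelial Tfrc, Ly6g and Gpihbp1 fall outside this and were named after their values were seen. Nothing says how mice were housed or dissected beyond the batch. The p-values set strain differences against the spread left between these mice after strain and batch, whatever its source, counting error included. Peak coordinates are as deposited.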

Additional observations from a re-analysis of the deposited data

Results flagged for a closer look

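In 5 of 79 groups of 4 mice looked at, 1 mouse lay far from the other 3 by Dixon's 95% criterion, which chance alone gives in about 1 of 20 groups. These mice had Ly6e at 369 CPM in C57BL/6 macrophages and 13.5 CPM in C57BL/6 Drd1+ neurons, and Ly6h at 147 CPM in NOD/ShiLtJ and 155 CPM in NZO/HlLtJ Drd1+ neurons and 144 CPM in NZO/HlLtJ Drd2+ neurons. All 5 are batch 3 mice and the highest of their group, and batch 3 had the lowest median UMI count per nucleus, 3232. The part of depth in these levels was not tested.

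Ly6e differed in direction between clusters: every mouse of a strain lay on one side of the mean of the other strains of its batch in one cluster and on the opposite side in another. The difference itself was not tested. Of the members only Ly6e was looked at in this way, in endothelium, macrophages, Drd1+ and Drd2+ neurons. The others may differ too: A/J was low for Ly6a in endothelium and high in oligodendrocytes, as given above. As mean log2(CPM + 1) differences over 4 batches, macrophages minus Drd1+ neurons, 129S1/SvImJ was at 1.76, PWK/PhJ at 2.09 and NOD/ShiLtJ at -2.39. For macrophages minus Drd2+ neurons, 129S1/SvImJ was at 2.11, PWK/PhJ at 1.93, CAST/EiJ at -1.43 and NOD/ShiLtJ at -2.39. The macrophage values rest on few counts: NOD/ShiLtJ had 1 to 15 a mouse and CAST/EiJ 2 to 8. An NZO/HlLtJ mouse with 0 counts is part of the mean of the other strains in its batch. For endothelium minus Drd1+ neurons, 129S1/SvImJ was at 1.40, C57BL/6 at 1.68 and NOD/ShiLtJ at -1.40. For endothelium minus Drd2+ neurons, 129S1/SvImJ was at 1.74 and NOD/ShiLtJ at -1.41. Only strains with 4 mice in both clusters were looked at. CAST/EiJ, with 3 endothelial mice, lay below the others of its batch in 3 of 3 in endothelium (-1.23 on average) and above in 4 of 4 in Drd2+ neurons (0.65).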

How the results depend on the processing

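Of 94 recalculated log2 ratios between the highest and lowest strain of 11 gene and cluster pairs, 93 kept their direction and moved by at most the combined SD between mice of the 2 strains. That allowance was wide, up to 1.68 for Ly6e in macrophages, and the strains were picked in these same data. It took in the fall of endothelial Ly6c1, NZO/HlLtJ to WSB/EiJ, from 3.66 to 2.496 with libraries of any number of nuclei. The 1 ratio that moved further was also that of endothelial Ly6c1, at 9.28 in nuclei of the ATAC index against 3.66 in all nuclei. In nuclei of the ATAC index it rests on few WSB/EiJ counts. Which strain was lowest for endothelial Ly6a varied between A/J, PWK/PhJ and CAST/EiJ, and which was highest between C57BL/6 and 129S1/SvImJ. The highest strain also changed in some settings for endothelial Ly6c1 (NOD/ShiLtJ, A/J or 129S1/SvImJ), Ly6e in Drd1+ (A/J) and Drd2+ neurons (NZO/HlLtJ) and Ly6h in Drd2+ neurons (NZO/HlLtJ). The lowest changed for Ly6e in macrophages (CAST/EiJ) and both neuron clusters, Ly6a in oligodendrocytes, and Ly6h and Lynx1 in both neuron clusters. The number of genes called in endothelium was 161, 71 with no replicate block, 527 with no filter on low counts, where more genes were tested, and 63 to 138 with 1 batch left out, lowest without batch 2 and 68 without batch 1. In astrocytes it was 1767, and 1138 to 1675 with 1 batch left out (1165 without batch 1 and 1138 without batch 2). With no replicate block, of the members' calls Ly6h in Drd1+ neurons was lost, and it was also lost without batch 3. Ly6e in endothelium was lost without batch 2. Ly6c1 in endothelium was lost with the 3 libraries under 10 nuclei added together. Ly6a in Drd2+ neurons was gained without batch 4. Other cluster counts stayed within 1.5 times. With Y transcripts as a term, chosen after seeing the data, the members called were the same, as were they by DESeq2. Of the interferon-responsive genes, DESeq2 called 3 where edgeR called 5 in Drd1+ neurons, 5 where edgeR called 3 in endothelium and 1 where edgeR called 2 in macrophages. Libraries of any number of nuclei and scaling by endothelial markers were also added after seeing the data. Endothelial libraries of 53794 to 433270 counts limit what low strains can show: 4 mice had 7 to 15 Ly6a counts. All reads were aligned to 1 reference, and the part of strain sequence differences in the counts was not tested.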
